A study of Mus musculus with 6 samples.

Results

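The glucocorticoid receptor gene Nr3c1 and its surroundings on mouse chromosome 18 were examined for sites occupied in liver by a tagged form of thyroid hormone receptor β1 (TRβ1). Members were all peaks of the 3 deposited lists with their midpoint between positions 39400000 and 40000000 of chromosome 18 on the mm9 build. This stretch of 600 kb held 65 of the 98191 peaks of the series: 41 of 46092 for TRb T3, 24 of 51992 for TRb PTU and 0 of 107 for GFP PTU. The gene body was taken as about 39.57 to 39.65 Mb, with bounds known to the nearest 10 kb. No mm9 annotation was used here, so the placement of the gene rests on those approximate bounds. The stretch was chosen by its peaks, with the overlap between the TRb T3 and TRb PTU lists in view, so counts and scores describe it and were not tested.

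All mice were BirA heterozygotes, 9 to 10 weeks old, that ate a diet containing propylthiouracil (PTU), a blocker of thyroid hormone synthesis, for 3 weeks. BirA is a ligase that attaches biotin to a tagged protein. TRb T3 livers received an adenovirus for GFP and biotinylated TRβ1, and T3, the active thyroid hormone, was injected for 4 days. TRb PTU livers received the same virus with saline for 4 days. GFP PTU livers received a virus for GFP alone, with saline. Streptavidin agarose was used to pull down the biotinylated receptor, and the DNA that came with it was sequenced (ChIP-seq), with 1 library per condition and an unstated number of animals. The receptor measured was thus a tagged protein delivered by virus, and the sources used here do not give the promoter that drove it. A GFP liver injected with T3 was not analysed here. The liver label could not be checked against marker genes, because peak lists hold no expression values.

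TRβ1 is a nuclear receptor that sits on DNA with and without its hormone, usually as a heterodimer with the retinoid X receptor, and exchanges corepressors for coactivators when T3 binds. Nr3c1 encodes the glucocorticoid receptor, a nuclear receptor of the steroid class that in liver drives genes of gluconeogenesis and amino acid breakdown and restrains inflammatory genes. Nr3c1 is transcribed towards lower coordinates, so its promoters and alternative first exons are expected near the upper bound of the body. By gene order in the GRCm38 annotation of RefSeq, the nearest protein-coding neighbours are Arhgap26 on the lower side and Pabpc2, a poly(A)-binding protein gene on the upper side.

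More TRβ1 peaks were called around Nr3c1 with T3 than without it, and peaks called only with T3 outnumbered those called only without it. A TRb T3 peak with no TRb PTU peak overlapping it by at least 1 bp was called T3-only, the reverse PTU-only, and all others shared. T3-only peaks made up 24 of the 41 TRb T3 peaks in the stretch (58.5%, exact Clopper-Pearson 95% interval 42.1 to 73.7%), beside 38.7% over the whole TRb T3 list. On the rest of chromosome 18 the T3-only share was 43.1%, which lies inside that interval. PTU-only peaks made up 7 of the 24 TRb PTU peaks (29.2%, interval 12.6 to 51.1%), beside 46.1% over the whole TRb PTU list. The rest of chromosome 18 had 43.3%, and both of these shares lie inside the interval. The other 17 peaks of each list met each other one to one, which gave 48 distinct sites in all. Intervals cover counting error over peaks and not the variation between animals, and with 1 library per condition no test between conditions was possible. Read depth is unknown, so a difference in peak number cannot be told apart from a difference in depth. The stretch held 1.71 times as many TRb T3 as TRb PTU peaks, against 0.887 times in the whole series while the rest of chromosome 18 had 1505 peaks in each list. GFP PTU had only 3 peaks on the chromosome, the nearest 18.6 Mb from the centre of the stretch, so its lack of peaks here tells little.

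**Figure D1:**
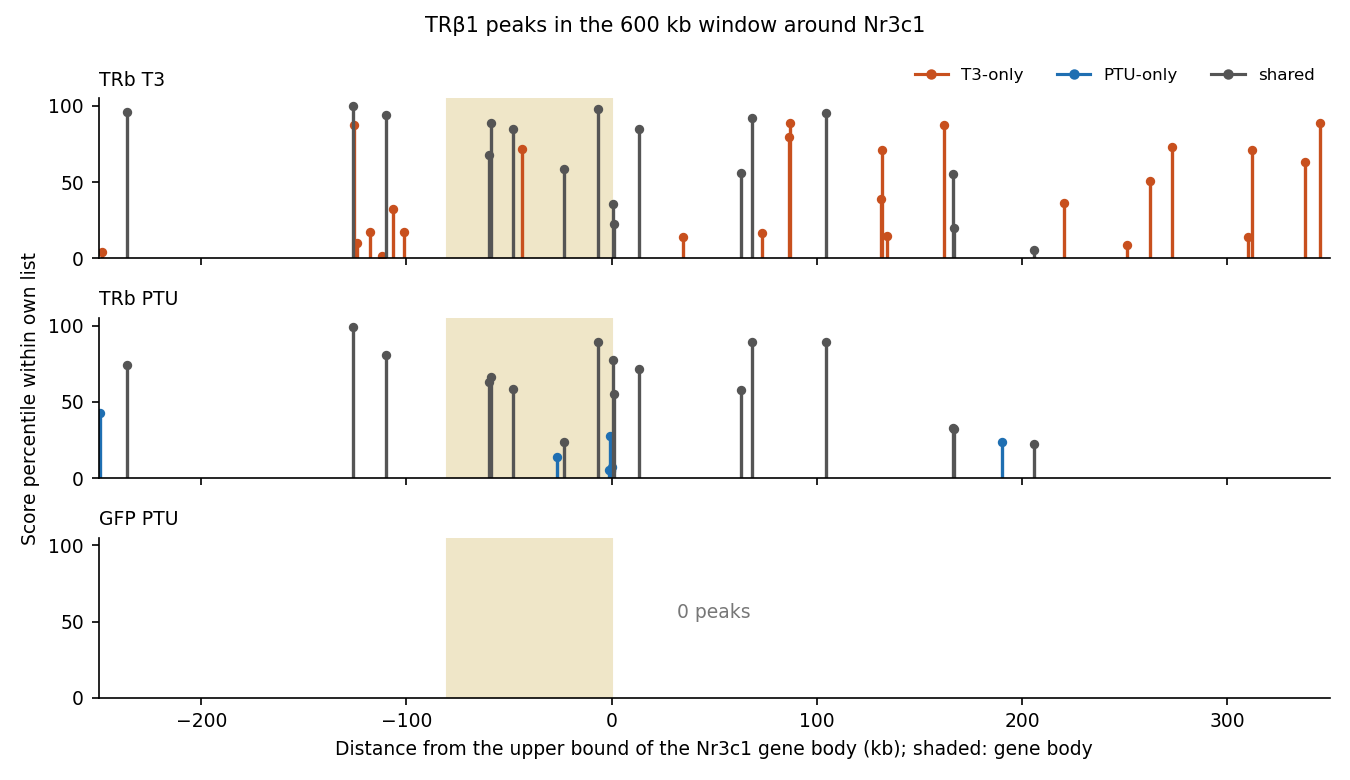
Peaks of TRb T3, TRb PTU and GFP PTU in the 600 kb around Nr3c1. The x axis is the distance in kb from the upper bound of the gene body (shaded), the y axis the percentile of a peak's score within its own list, and colours mark T3-only, PTU-only and shared peaks. The 24 T3-only peaks lie mostly on either side of the body, 4 of the 7 PTU-only peaks lie at its upper bound, and GFP PTU has 0 peaks.

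The counts of single-list peaks varied between the gene body and its flanks. Over the whole lists, 38.7% of TRb T3 peaks were T3-only and 46.1% of TRb PTU peaks were PTU-only. In the 170 kb below the body, on the Arhgap26 side, 7 of 10 TRb T3 peaks were T3-only and 1 of 4 TRb PTU peaks was PTU-only. Within the 80 kb of the body, 1 of 6 TRb T3 peaks was T3-only (16.7%) and 4 of 9 TRb PTU peaks were PTU-only (44.4%). That PTU-only share was close to the one over the whole TRb PTU list. In the 350 kb above the body, 16 of 25 TRb T3 peaks were T3-only and 2 of 11 TRb PTU peaks were PTU-only. With these bounds, the body was the one of these parts where TRb PTU had more peaks than TRb T3, at 7.5 TRb T3 and 11.2 TRb PTU peaks per 100 kb. Of its TRb PTU peaks, 3 lay within 2 kb of the upper bound, all PTU-only, where TRb T3 had 0. With the body narrowed by 5 kb on each side, it held 6 TRb T3 and 6 TRb PTU peaks. With peaks scored below their list's median left out, it held 6 TRb T3 and 4 TRb PTU peaks, so the direction turned. The flanks had 5.88 and 2.35 per 100 kb below the body, and 7.14 and 3.14 per 100 kb above it (TRb T3 and TRb PTU). These numbers are small and the exact intervals of the T3-only share are wide. They ran from 34.8 to 93.3% below, from 0.421 to 64.1% within and from 42.5 to 82.0% above the body. The intervals overlap, but they treat neighbouring peaks as independent and are no test between the parts.

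**Figure D2:**
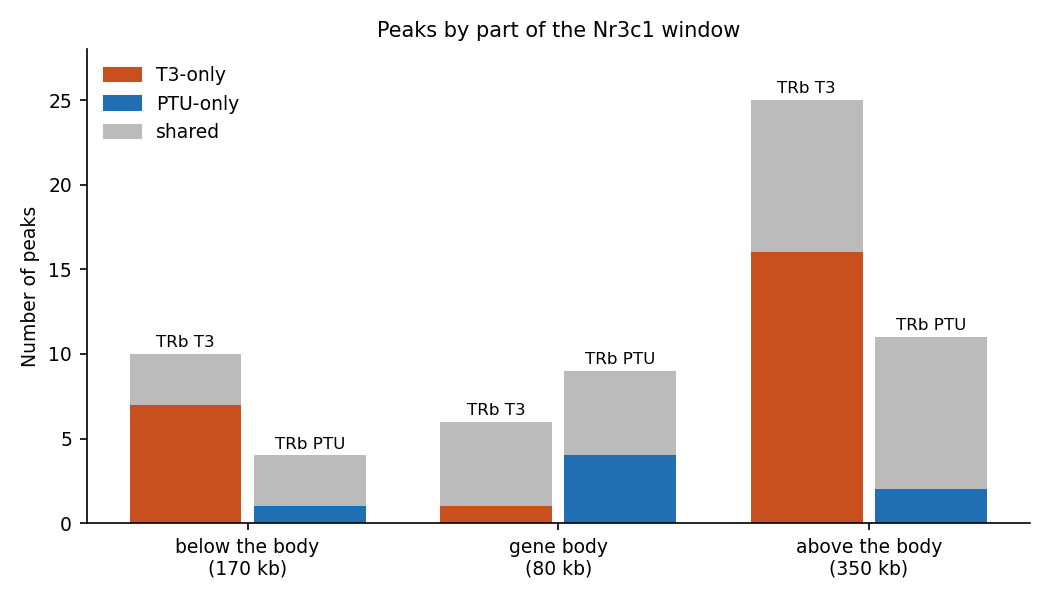
Number of peaks (y axis) in the 3 parts of the stretch around Nr3c1, with the TRb T3 bar left of the TRb PTU bar. Each bar is split into peaks of a single list and shared peaks; T3-only peaks number 7, 1 and 16 and PTU-only peaks 1, 4 and 2 below, within and above the body.

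Shared sites included the most strongly scored peaks of the locus. Each peak carries a score set by the authors' peak caller. Which statistic this is was not stated, so scores ranked peaks inside a list and their size was not compared between lists. Shared peaks scored higher over the whole series too. In TRb T3 the median score was 30.27 for shared and 14.95 for T3-only peaks, and in TRb PTU 32.09 for shared and 12.62 for PTU-only peaks. The highest-scored site in both lists, at 39523550 to 39524024 in TRb T3, lay outside the gene on its 3′ side. It was below the lower bound of the body at about 39.57 Mb, and 126 kb from the upper bound. Its score was 266.83 in TRb T3, at the 99.6th percentile of that list, and 226.83 in TRb PTU, at the 99.0th percentile of that one. By TRb T3 score, the second lay inside the gene, 6.60 kb below the upper bound, at 39643272 to 39643537 in TRb T3, with a score of 183.77 in TRb T3 (98.1st percentile) and 80.04 in TRb PTU (89.0th percentile). Next by TRb T3 score came the sites starting in TRb T3 at 39413498 (scores 140.14 in TRb T3 and 40.73 in TRb PTU), at 39754415 (131.89 and 81.67) and at 39539873 (118.13 and 53.17). The order differed by TRb PTU score, where the site starting in TRb PTU at 39718066 was second (TRb T3 score 103.39, TRb PTU score 82.77). The site starting at 39539873 also held the widest TRb T3 peak of the locus, 706 bp against 492 bp in TRb PTU. Shared peaks were closely aligned, with a median distance between midpoints of 9.5 bp over the 17 pairs, against 18.5 bp over all 27010 one-to-one pairs of the series. The smallest overlap of a shared pair was 129 bp.

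Within the gene body, 5 sites were occupied in both conditions. Besides the site 6.60 kb below the upper bound they began in TRb T3 at 39590203 (score 36.69 in TRb T3 and 27.81 in TRb PTU), 39590892 (84.64 and 30.91), 39602053 (69.54 and 24.32) and 39626682 (28.05 and 10.24). The first 2 were neighbours less than 1 kb apart and were called separately in both lists. All 5 exceeded the TRb T3 median score of 22.13, and all but the one at 39626682 exceeded the TRb PTU median of 19.35. Over the whole series, 61.7% of shared TRb T3 peaks and 68.5% of shared TRb PTU peaks were at or above these medians. The single T3-only peak of the body was at 39606434 to 39606592, with a score of 41.29 (71.4th percentile) and 4360 bp from the nearest TRb PTU midpoint. The PTU-only peaks of the body began at 39623153 (score 7.84), 39648568 (5.60), 39649040 (11.11) and 39649456 (5.48).

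To set shared sites of both lists side by side, scores were turned into ranks over the same 27010 one-to-one pairs. Of the 17 pairs around Nr3c1, 13 ranked higher in TRb T3 than in TRb PTU (76.5%), beside 48.9% of all pairs. The median rank difference, TRb T3 minus TRb PTU, was 12.0 percentile points, with a range of -37.9 to 38.3. All 8 pairs within and below the body ranked higher in TRb T3. The 5 in the body did so by 12.0 to 38.3 points, the most at the site starting at 39602053, which was at 77.9% among TRb T3 ranks and at 39.6% among TRb PTU ranks. The strongest site of the locus differed least of these 8, at 99.4% by TRb T3 rank and 98.3% by TRb PTU rank. TRb T3 peaks were the wider ones in 12 of the 17 pairs, among them all 8 within and below the body, beside 39.6% of all pairs.

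**Figure D3:**
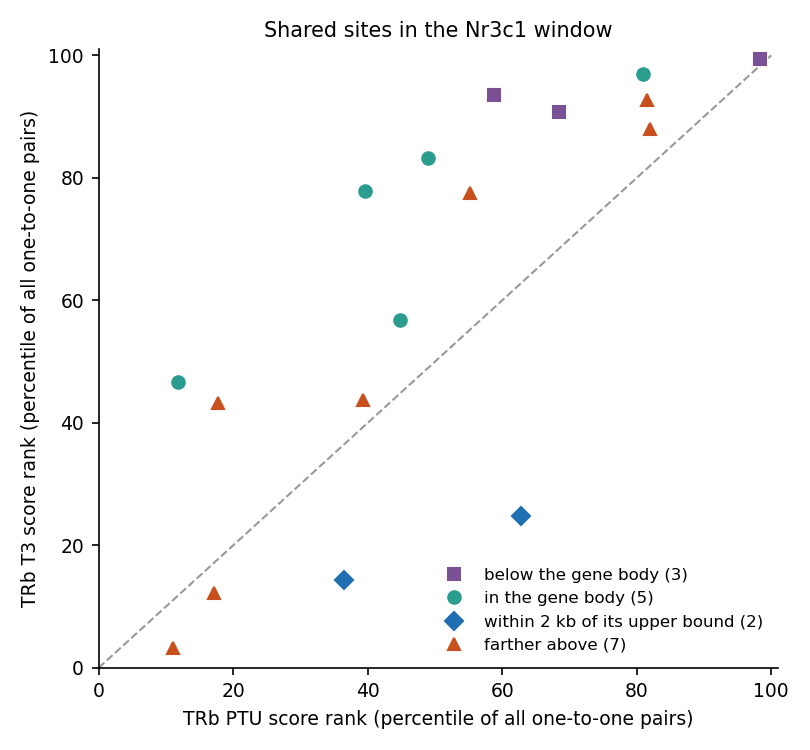
Score ranks of the 17 shared sites around Nr3c1, as percentiles of all 27010 one-to-one pairs, in TRb T3 (y axis) against TRb PTU (x axis). Points above the dashed line rank higher in TRb T3; the 8 sites within and below the body all lie above it, and the 2 sites within 2 kb of the upper bound lie farthest below it.

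The upper bound of the body, where the promoters of Nr3c1 are expected, went the other way. This place was singled out after its values were seen. The bound is known only to the nearest 10 kb, so which of these peaks lie inside the gene is uncertain. Within 2 kb of the bound there were 2 TRb T3 peaks covering 285 bp, both shared, against 6 TRb PTU peaks covering 1590 bp, of which 4 were PTU-only. Over the whole lists, 38.7% of TRb T3 peaks were T3-only and 46.1% of TRb PTU peaks were PTU-only. With 2 and 6 peaks, no departure from these shares can be read from the counts. GFP PTU had 0 peaks there, which tells little with only 3 on the chromosome. The shared peaks were at 39650679 to 39650824 in TRb T3 and 39650633 to 39650857 in TRb PTU (scores 15.46 in TRb T3 and 45.60 in TRb PTU), and at 39651237 to 39651375 in TRb T3 and 39650920 to 39651395 in TRb PTU (11.21 and 22.23). Among the one-to-one pairs, the first ranked at 24.8% in TRb T3 and 62.8% in TRb PTU, and the second at 14.3% and 36.5%. Of all pairs of the series, 48.9% ranked higher in TRb T3. No other pairs of the locus ranked lower in TRb T3 by more than 7.85 points. The second was also the most unequal in width, at 139 bp in TRb T3 and 476 bp in TRb PTU.

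The 4 PTU-only peaks at this end formed a row from 39648568 to 39650304, a span of 1737 bp directly below the shared peaks. Their scores were 5.60, 11.11, 5.48 and 6.22 in order of position, which placed them between the 4.88th and the 27.4th percentile of the TRb PTU list. The nearest TRb T3 midpoint was 616 to 2117 bp away. They were weakly scored peaks next to sites that both lists shared.

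**Figure D4:**
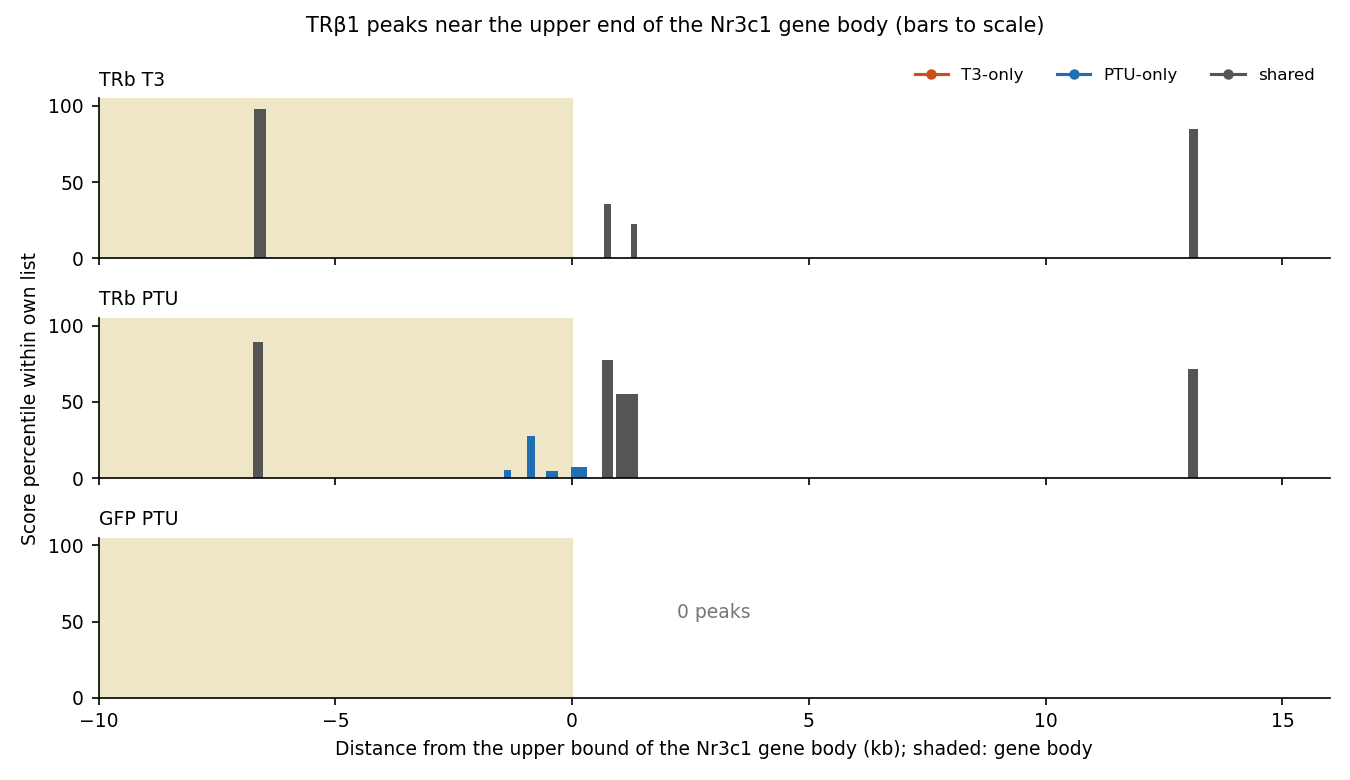
Peaks near the upper bound of the Nr3c1 body in TRb T3, TRb PTU and GFP PTU. The x axis is the distance from the bound in kb and bar widths are the peak widths to scale; the y axis is the score percentile within the peak's own list. Within 2 kb of the bound TRb T3 has 2 peaks, TRb PTU 6 and GFP PTU 0.

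T3-only peaks were spread over both flanks and included well-scored ones. Their median score was 16.34, against 14.95 for all T3-only peaks of the series, and 11 of the 24 were at or above the median of the TRb T3 list, beside 31.5% of all T3-only peaks. The 5 highest were at 39736943 to 39737183 and 39995390 to 39995571 (both 85.46, 88.9th percentile), 39811634 to 39811947 (78.15), 39524162 to 39524427 (77.94) and 39736400 to 39736586 (54.60). All but 1 of these lay above the body. The exception, at 39524162, began 169 bp from the end of the nearest TRb PTU peak, the shortest such gap in the locus, and flanked the strongest shared site. The distance from a T3-only midpoint to the nearest TRb PTU midpoint had a median of 17739 bp and ranged from 522 to 93535 bp. It was at least 10000 bp for 14 of the 24, which include the 8 above the last TRb PTU peak of the stretch. These distances were not computed over all T3-only peaks of the series.

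Some T3-only peaks stood in small runs, defined by a distance of 3 kb that was chosen after the values were seen. How many T3-only peaks of the whole series stand in such runs was not computed. Counting peaks whose midpoints were within 3 kb of the next, 4 runs held 9 of the 24. They spanned 39524162 to 39526138 (2 peaks), 39736400 to 39737183 (2), 39781260 to 39784149 (3) and 39960041 to 39961997 (2). Below the body, 6 of the 7 T3-only peaks lay within 24.6 kb, from 39524162 to 39548720, around the shared site at 39539873. Apart from the first of them, these 6 had scores of 14.38 or less. At the far end of the stretch, the last TRb PTU peak was followed by 144 kb with 8 TRb T3 peaks, with scores from 7.56 to 85.46. These are T3-only by the way that end was delimited.

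PTU-only peaks around Nr3c1 were weakly scored. Their median score was 7.84, against 12.62 for all PTU-only peaks of the series, and 0 of the 7 reached the median of the TRb PTU list, beside 28.4% of all PTU-only peaks. The highest, at 39400749 to 39400954, scored 16.01 and lay 635 bp from a T3-only peak at 39401421 to 39401552 (score 6.05), so this site at the lower edge of the stretch carried neighbouring peaks of both kinds that did not overlap. The next were 39649040 (11.11), 39840213 (10.24), 39623153 (7.84) and 39649966 (6.22). The peak at 39840213 to 39840373, with the nearest TRb T3 midpoint 15397 bp away, was the 1 PTU-only peak at least 10000 bp from a TRb T3 peak.

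Against the rest of the genome, the stretch was rich in peaks of both lists, and most of all in T3-only peaks. Windows of the same length were laid on the same grid over chromosomes 1 to 19 and X, and 3545 of them held a TRβ1 peak. The median window had 4 T3-only and 4 PTU-only peaks, and the Nr3c1 window had 24 and 7. Its totals were also above those of the median window, with 41 TRb T3 peaks against 9, 24 TRb PTU peaks against 9, and 17 shared peaks of each list against 5. Counting itself, it was one of 12 windows with at least 24 T3-only peaks and one of 16 in which T3-only peaks outnumbered PTU-only peaks by at least 17. The highest number of T3-only peaks in a window was 44, and the largest such excess was also 44. At least 7 PTU-only peaks were found in 1288 windows. In 502 windows with at least 17 pairs, the median share of pairs with a higher TRb T3 rank was 46.3%, and 10 windows, this one included, reached 76.5%. These places describe a window that was picked for its peaks and carry no test.

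**Figure D5:**
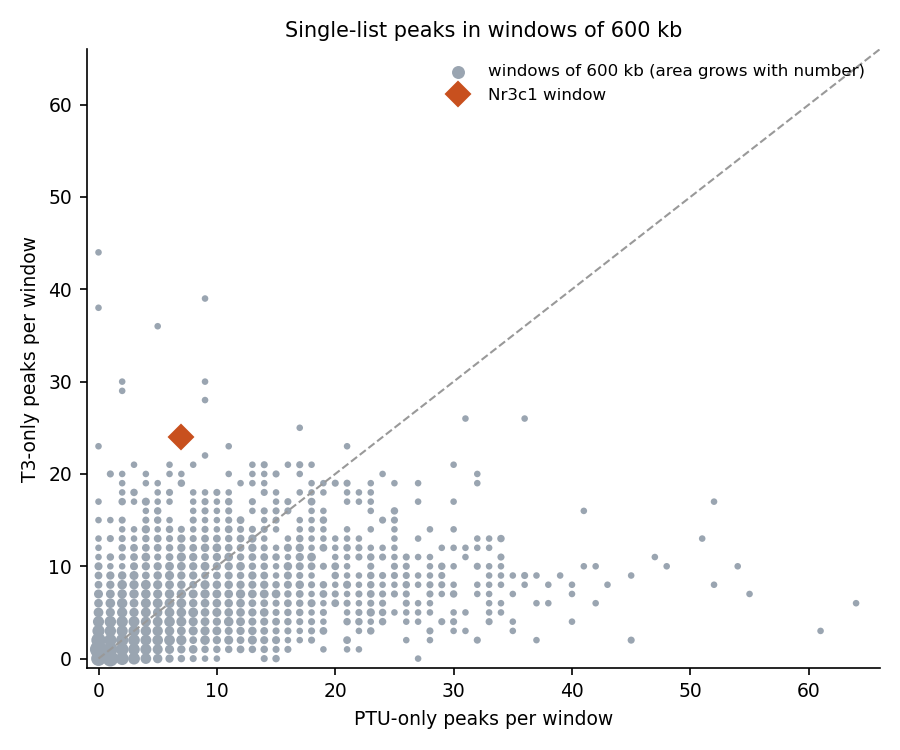
T3-only peaks (y axis) against PTU-only peaks (x axis) in 3545 windows of 600 kb, with the Nr3c1 window as a diamond. Points above the dashed line have more T3-only than PTU-only peaks; the Nr3c1 window has 24 T3-only and 7 PTU-only peaks.

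Neighbouring windows on chromosome 18 differed from each other. From 38800000 to 39400000, on the lower side, there were 52 TRb T3 and 39 TRb PTU peaks, with 19 T3-only and 7 PTU-only, and 18 of 31 pairs ranked higher in TRb T3. From 40000000 to 40600000 there were 6 TRb T3 and 5 TRb PTU peaks, with 4 T3-only and 3 PTU-only. The median window of the genome had 9 peaks in each list, with 4 T3-only and 4 PTU-only. The locus thus bordered a stretch somewhat below the median window on the upper side and a well-occupied one on the lower side. At the edges, the TRb T3 peak just inside the upper limit started at 39995390 (score 85.46) and the next outside at 40031155 (7.54). The TRb PTU peak just inside the lower limit started at 39400749 (16.01) and the next outside at 39396489 (14.66).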

How the data were processed

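TRβ1 binding was measured by ChIP-seq in 3 liver samples, 1 library per condition, grouped by sample title; the 3 input samples were not used. The authors deposited 1 peak list per ChIP sample, with a score per peak. Bowtie, SAMtools, MACS2 and the mm9 build are named in the submitters' processing notes; the sources used here give no versions, settings or control library. Without read counts in the files, depth is unknown. Peaks were placed by midpoint, positions are 1-based, and overlap meant at least 1 bp. Ranks were taken over one-to-one overlapping pairs. The classification of peaks was tested on simulated data with sites far apart and at most 1 peak per list at each. Overlaps of 1 peak with several were not simulated. The stretch, classes and named peaks (the 5 highest-scored per class and all peaks in the gene body) were chosen with earlier results of these data known. Alternatives covered the overlap rule, score filter, equal list sizes, GFP PTU sites and peak placement. Sequences of the locus were not used here. Python 3.11.15, numpy 2.4.6, pandas 2.3.3, scipy 1.17.1 and matplotlib 3.10.9 were used.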

Additional observations from a re-analysis of the deposited data

How the results depend on the processing

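No paired analysis was possible because there was 1 library per condition. Dropping peaks scored below the median of their own list left 11 shared peaks in each list (17 before), 13 T3-only peaks (24 before) and 2 PTU-only peaks (7 before). With that filter the gene body held 2 T3-only peaks (1 before) and 0 PTU-only peaks (4 before). All 4 PTU-only peaks of the body scored below the median, and the added T3-only peak was a shared one whose TRb PTU partner was dropped. Cutting TRb PTU to the size of the TRb T3 list left 4 PTU-only peaks (7 before), of which 2 were in the body (4 before). The other 60 values, of 69 computed, moved by at most 1.5 times or stayed within their interval. Among them, the T3-only share ran from 53.7 to 58.5% and the PTU-only share from 15.4 to 29.2%. The interval of the T3-only share was 37.4 to 69.3% with midpoints within 1 kb and 32.8 to 74.4% with the score filter. Both intervals include 38.7%, the share over the whole TRb T3 list as reported. Whole-list shares under the changed settings are not given here. Moving both bounds of the body by 5 kb was chosen after seeing the data. Widening gave 1 T3-only and 5 PTU-only peaks there, and narrowing gave 1 T3-only and 1 PTU-only peak. Unknown depth limits every comparison of peak number.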
